A study of Mus musculus with 14 samples.

Results

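The potassium and calcium channel genes described here are the mouse genes whose symbols begin with Kcn or Cacn, leaving out the Shaker potassium channel symbols that begin with Kcna and the noncoding gene Kcnq1ot1. Taking every probe set that the platform annotation gives a single symbol of this kind found 194 probe sets for 97 genes, out of 45037 probe sets and 18193 genes in all. Of these genes, 24 encode calcium channel subunits and 73 are potassium channel members, among them Kcnmb4os1 and Kcnmb4os2, which RefSeq lists as long noncoding RNAs. The values came from brain tissue and from a thigh muscle, the vastus lateralis. The mice had a deletion of the Prader-Willi syndrome imprinting center (PWS-IC del, called mutant below) or were their wild-type littermates. The titles do not say which parts of the brain were taken. All mice were F1 hybrids of FVB and B6, and wild type and mutant were matched in age, with the age itself not given in the sources used here. There were 4 wild-type and 3 mutant arrays of each tissue, each from total RNA of what the titles call a biological replica, hybridised to an Affymetrix Mouse Genome 430 2.0 array. The parent that passed on the deletion, the sex of the mice and whether brain and muscle came from the same mice were not stated in the labels.

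Voltage-gated calcium channels are built around a pore-forming alpha-1 subunit (the Cacna1 genes), which opens on depolarisation, joined by an extracellular alpha-2-delta subunit (Cacna2d), an intracellular beta subunit (Cacnb) and, in skeletal muscle, a gamma subunit (Cacng). Other genes of the Cacng family encode TARPs, which escort AMPA-type glutamate receptors to the synapse. Potassium channels set the resting potential and end the action potential. They fall into voltage-gated pores (Kcnc, Kcnd, Kcnf, Kcng, Kcnh, Kcnq, Kcns and Kcnv), inward rectifiers (Kcnj), leak channels with a pair of pore domains (Kcnk) and channels gated by calcium or sodium (Kcnm, Kcnn, Kcnt and Kcnu). In muscle the calcium channel of the T-tubule acts as the voltage sensor that triggers calcium release, whereas in brain the same gene families control transmitter release, dendritic excitability and potassium clearance by glia.

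Promoter windows are shown for 6 members on which the tissue results turn, so that a reader can set the sequence beside the values. Cacna1s and Cacng6 were higher in muscle, Kcnd2 and Cacnb4 were higher in brain, and Kcnj13 and Kcne2 varied together among the brain arrays. Each window is 300 bases of RefSeq sequence of assembly GRCm38.p6, from 250 bases before to 50 bases after an annotated gene start, written in the direction of the gene. They lie at chr1:136052561-136052860 on the plus strand (Cacna1s), chr7:3424412-3424711 on the plus strand (Cacng6), chr6:21215096-21215395 on the plus strand (Kcnd2), chr2:52676094-52676393 on the minus strand (Cacnb4), chr1:87394680-87394979 on the minus strand (Kcnj13) and chr16:92292139-92292438 on the plus strand (Kcne2). Capitals mark CANNTG, the E-box letters that myogenic and neurogenic factors can bind, and CATTCC, the MCAT letters, each on either strand.
Cacna1s: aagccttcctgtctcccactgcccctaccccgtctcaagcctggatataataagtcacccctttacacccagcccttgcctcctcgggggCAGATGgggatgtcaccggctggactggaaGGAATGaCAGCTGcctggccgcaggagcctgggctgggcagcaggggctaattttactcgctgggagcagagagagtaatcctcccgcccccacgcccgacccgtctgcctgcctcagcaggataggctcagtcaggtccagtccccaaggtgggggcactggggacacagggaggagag
Cacng6: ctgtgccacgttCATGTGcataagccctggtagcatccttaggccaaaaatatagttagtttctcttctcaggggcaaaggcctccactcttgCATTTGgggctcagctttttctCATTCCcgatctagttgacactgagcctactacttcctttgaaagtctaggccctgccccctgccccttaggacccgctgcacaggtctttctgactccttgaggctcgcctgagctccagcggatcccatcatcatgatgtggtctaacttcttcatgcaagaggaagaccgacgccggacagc
Kcnd2: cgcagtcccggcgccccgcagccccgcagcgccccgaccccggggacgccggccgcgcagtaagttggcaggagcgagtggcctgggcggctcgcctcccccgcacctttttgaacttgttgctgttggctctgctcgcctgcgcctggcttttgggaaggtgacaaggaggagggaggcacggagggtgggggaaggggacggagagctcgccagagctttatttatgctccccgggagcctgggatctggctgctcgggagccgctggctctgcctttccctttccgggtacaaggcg
Cacnb4: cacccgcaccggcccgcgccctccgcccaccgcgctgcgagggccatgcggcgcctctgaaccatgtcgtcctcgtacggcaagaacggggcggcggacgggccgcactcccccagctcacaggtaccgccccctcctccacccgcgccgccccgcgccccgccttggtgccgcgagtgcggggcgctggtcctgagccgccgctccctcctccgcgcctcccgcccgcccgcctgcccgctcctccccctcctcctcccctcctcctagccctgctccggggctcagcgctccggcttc
Kcnj13: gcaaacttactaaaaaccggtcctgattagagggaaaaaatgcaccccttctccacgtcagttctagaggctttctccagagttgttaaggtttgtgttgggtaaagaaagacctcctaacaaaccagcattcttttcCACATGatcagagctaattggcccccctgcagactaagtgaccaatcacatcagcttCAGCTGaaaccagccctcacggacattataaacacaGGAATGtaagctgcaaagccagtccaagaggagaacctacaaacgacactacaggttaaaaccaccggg
Kcne2: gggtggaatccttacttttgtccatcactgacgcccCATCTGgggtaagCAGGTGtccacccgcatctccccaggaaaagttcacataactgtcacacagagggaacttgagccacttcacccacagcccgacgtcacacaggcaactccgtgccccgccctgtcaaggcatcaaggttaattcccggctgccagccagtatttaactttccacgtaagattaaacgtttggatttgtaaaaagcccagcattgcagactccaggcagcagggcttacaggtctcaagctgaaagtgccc

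The Cacna1s window held 2 matches to CANNTG and 1 to CATTCC, and the Cacng6 window held 2 and 1. The Kcnd2 and Cacnb4 windows held 0 matches to either. They held 26 and 40 CG dinucleotides, against a median of 7 in all promoter windows and 10 in member windows. The Kcnj13 window held 2 matches to CANNTG and 1 to CATTCC, and the Kcne2 window held 2 and 0. RefSeq lists 3 windows for Cacnb4 and 2 for Kcne2, and only the first listed is shown and described here. The RefSeq table held a window for 73 of the 97 members, 102 windows in all, among 32851 windows of all genes. CANNTG was in 70.6% of the member windows and 72.3% of all windows. CAGCTG, a subset of CANNTG, was in 32.4% of the member windows and 16.3% of all windows, and in 25 of the 65 windows of members higher in brain and 1 of the 5 of members higher in muscle. CATTCC was in 18.6% of the member windows and 14.7% of all windows. TATAAA was in 4.9% against 13.6%. A match to such short letters is a description of the window and not a measured binding site.

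Values are given as log2(intensity + 16), in which a difference of 1 is a factor of 2, and the offset understates the change of dim genes. Where a gene had several probe sets, the brightest on average over all 14 arrays stood for it. The scale cannot go below 4. Of the members higher in brain in wild type, 30 lay below the filter on low values in muscle, and 4 of those higher in muscle lay below it in brain. Values that low were not shown to be above background, so the order of such differences is not read. The median intensity was 142.1 to 170.1 on the brain arrays and 88.8 to 96.4 on the muscle arrays, and arrays of the same tissue correlated at 0.952 to 0.992. The genotype labels were checked on Ndn, a paternally expressed gene of the imprinted domain. It was at 12.04 or more on the wild-type brain arrays and at 8.71 or less on the mutant ones, and at 8.69 or more against 7.73 or less in muscle. Snrpn, Magel2 and Mkrn3 of the same domain were also lower without overlap in mutant brain. In muscle Snrpn was barely apart, at 7.07 or more against 6.97 or less. Magel2 (6.23 or more against 6.55 or less) and Mkrn3 (4.03 or more against 4.35 or less) overlapped there, so the muscle check rests mainly on Ndn. The tissue labels were checked on defining genes: all 5 neuron markers were higher in brain and all 5 muscle fibre markers were higher in muscle. Some arrays stood apart from others of their group. Wild-type brain arrays 1 and 2 had lower choroid plexus markers (a mean of 5 genes of 7.56 and 7.70, against 8.80 to 10.21 on the other brain arrays). Wild-type brain arrays 1 and 3 carried muscle fibre transcripts (a mean of 5 genes of 10.46 and 9.78, against 6.41 to 7.01), wild-type brain array 3 carried pituitary transcripts (a mean of 5 genes of 8.68, against 6.21 to 6.54), mutant brain array 2 had high cerebellar markers, and wild-type muscle arrays 2 and 4 carried neuron transcripts (a mean of 5 genes of 7.95 and 7.18, against 5.65 to 6.66). Fat cell markers in muscle were highest on wild-type array 2 and mutant arrays 1 and 2 (a mean of 3 genes of 10.51, 9.89 and 10.79, against 8.20 to 9.40). In whole tissue, fewer cells of a type and less RNA per cell cannot be told apart.

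Brain was set against muscle within each genotype. Of the 24 calcium channel subunit genes, 16 were higher in brain and 4 in muscle in wild type, and of the 73 potassium channel members, 41 were higher in brain and 3 in muscle. The 6 TARP genes, the 4 KChIP genes (partners of the Kcnd pores) and 7 of the 9 calcium channel pores were higher in brain. The T-tubule channel genes Cacna1s and Cacng1, with Cacng6, Kcnq1 and Kcnj8, were higher in muscle. In all, in wild-type mice 57 of the 97 channel genes were higher in brain and 7 were higher in muscle, where a call needs an adjusted p under 0.05 in limma and a log2 difference of at least 1. The brain-higher share was 58.8%, beside 29.7% of all genes, and the muscle-higher share was 7.22%, beside 8.38%. In mutant mice 61 members (62.9%, beside 30.5% of all genes) were higher in brain and 7 (7.22%, beside 8.35%) were higher in muscle. In both genotypes alike, 56 members were higher in brain (27.8% of all genes were) and 6 were higher in muscle (7.38% of all genes were). The median brain minus muscle difference of the members was 1.52 in wild type and 1.73 in mutant mice, beside 0.45 and 0.43 over all genes. Shares and medians of the members are descriptions, and no test set them against other genes. Counts by family or list, here and below, are to be set beside the same shares of all genes. A small group near those shares is not read as leaning to either tissue.

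These splits depend on how arrays of different tissues are scaled, since the scaling behind the deposited values was not given in the sources used here. With quantile normalization of all arrays, 43 members were higher in brain and 14 in muscle in wild type, and with median centring 44 and 16. In mutant mice the splits were 49 and 16 with quantile normalization and 52 and 14 with median centring. Those scalings moved the median difference of all genes in wild type from 0.45 to -0.13 and -0.23, and that in mutant mice from 0.43 to -0.13 and -0.20. Brain-higher calls in both genotypes and under both scalings were made for 41 members, and muscle-higher calls for 12. The 12 were Cacna1s, Cacnb1, Cacng1, Cacng6, Kcnq1, Kcnj8, Kcng4, Kcnc1, Kcnj12, Kcnk15, Kcnk6 and Kcne4. The shares of all genes called under these scalings are not given here, so these counts are not read as particular to the members.

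**Figure D1:**
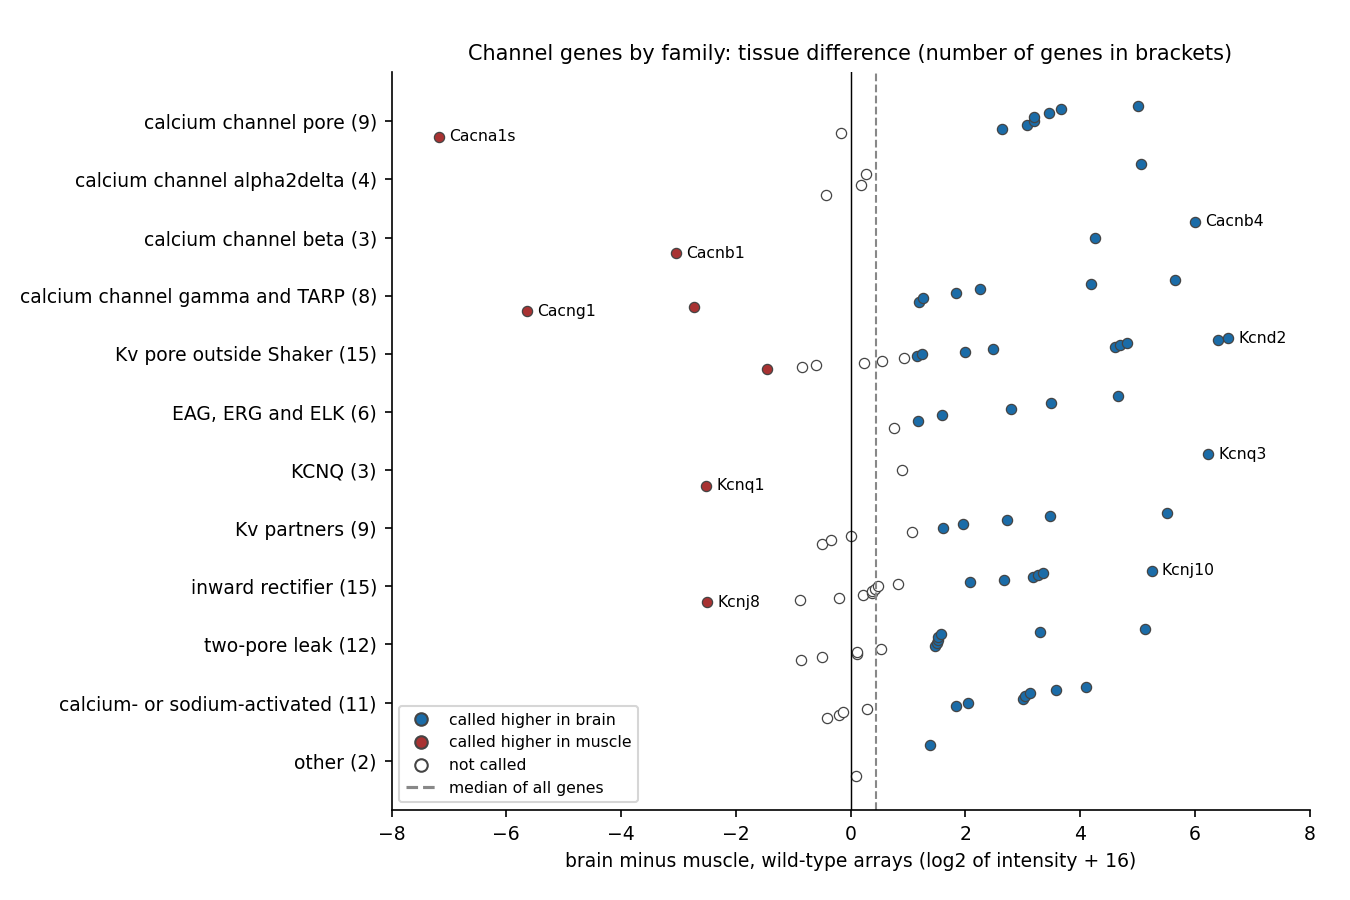
Brain minus muscle difference (log2 of intensity + 16) of each of the 97 channel genes on wild-type arrays, by family, with calls by colour and the median of all genes as a dashed line at 0.45. Most families lie to the right, while Cacna1s at -7.18, Cacng1 at -5.64 and Cacnb1 at -3.04 lie far to the left.

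The calcium channel of the muscle T-tubule was among the muscle-higher members. Cacna1s, its pore and the voltage sensor of excitation-contraction coupling, was at 12.53, 12.37, 12.52 and 12.44 on the wild-type and 12.52, 12.54 and 12.44 on the mutant muscle arrays. On the brain arrays it was at 5.86, 4.81, 5.58 and 4.91 in wild type and 4.70, 5.11 and 4.50 in mutants, so that the tissues were far from overlapping. The wild-type brain minus muscle difference was -7.18 (SE 0.20, adjusted p = 2.9e-13), and that of the mutants was -7.73. The highest brain values of Cacna1s were on wild-type arrays 1 and 3, the arrays with muscle fibre transcripts, on which the creatine kinase gene Ckm was at 10.38 and 9.61 against 6.38 to 7.25 on the others. Their part in the brain level of Cacna1s was not tested.

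The gamma subunit gene Cacng1 was at 12.03, 11.77, 11.96 and 11.91 on the wild-type muscle arrays and 6.47, 6.29, 6.42 and 5.94 on the wild-type brain arrays. Its mutant values were 11.93, 11.79 and 11.90 in muscle and 6.28, 5.92 and 6.14 in brain, close to the wild-type ones in each tissue. The difference was -5.64 (SE 0.12, adjusted p = 3.4e-14) in wild type and -5.76 in mutants. Cacng6, which encodes a related gamma subunit, was at 10.36, 10.34, 10.45 and 10.26 in wild-type muscle and 7.53, 7.0, 7.94 and 8.04 in wild-type brain, a difference of -2.73 (SE 0.20). Again no brain array reached any muscle array.

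The beta subunit gene Cacnb1 had 4 probe sets, and they did not run one way. The brightest was at 11.08, 11.02, 11.15 and 11.02 in wild-type muscle against 8.05, 8.36, 7.53 and 8.16 in wild-type brain, a difference of -3.04 (SE 0.17, adjusted p = 3.2e-10). The other 3 probe sets gave differences of 0.27, 0.60 and 1.11, the last of which was called higher in brain. The mean of the 4 probe sets gave -0.27, which was not called, so the direction for Cacnb1 rests on the probe set used. The platform annotation does not say here which transcripts each probe set covers. The alpha-2-delta gene Cacna2d1, which is used by channels of both tissues, differed least within the complex. It was at 12.19, 12.17, 12.09 and 12.20 in wild-type muscle and 11.88, 11.78, 11.58 and 11.68 in wild-type brain, with no overlap and a difference of -0.43 (SE 0.09, adjusted p = 4.1e-04), under the minimum of 1. With median centring it was -1.11 and passed the minimum. Its other 4 probe sets were at -0.06, -0.55, 0.12 and 0.00.

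Genes that work with this channel were higher in muscle as well. All 10 measured genes of a list of T-tubule and calcium release proteins were called higher in muscle in both genotypes, with a median difference of -5.36 in wild type. Ryr1, the calcium release channel that Cacna1s controls, was at 13.42 to 13.64 in wild-type muscle and 6.03 to 8.21 in wild-type brain. Stac3, an adaptor of the T-tubule channel, was at 11.43 to 11.74 and 5.70 to 6.72.

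**Figure D2:**
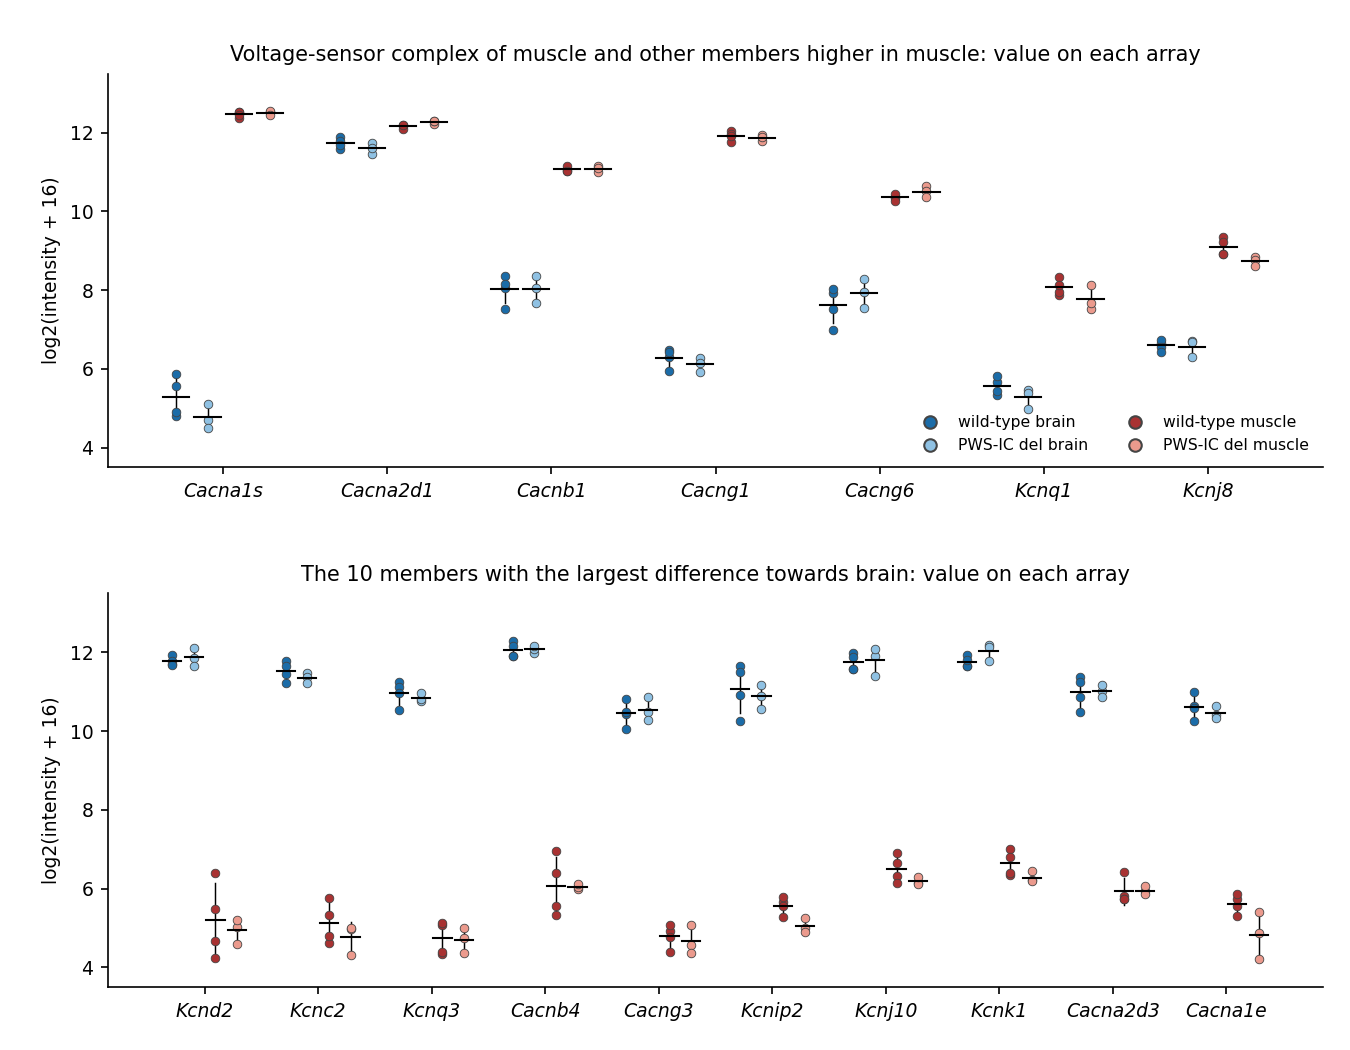
Value of each array (log2 of intensity + 16) for the voltage-sensor complex and other members higher in muscle (top) and for the 10 members with the largest difference towards brain (bottom), as points by group with the mean as a bar and the SD as a line. Tissue groups are apart for every gene drawn, by the least for Cacna2d1, and wild-type muscle shows a wide spread for Kcnd2 and Cacnb4. Except for Kcnj10 and Kcnk1, the 10 lay below the filter on low values in muscle, so their order is not read.

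Outside the voltage-sensor complex and Cacng6, the muscle-higher members in both genotypes were Kcnq1 and Kcnj8. Kcnq1, a slow delayed rectifier best known from heart and epithelia, was at 7.87, 7.96, 8.34 and 8.14 in wild-type muscle and 5.66, 5.81, 5.33 and 5.44 in wild-type brain, a difference of -2.52 (SE 0.16). Kcnj8, the pore of the ATP-sensitive potassium channel of vascular smooth muscle and pericytes, was at 9.34, 9.23, 8.91 and 8.91 in wild-type muscle and 6.65, 6.74, 6.56 and 6.43 in wild-type brain, a difference of -2.50 (SE 0.13). In both cases the groups were wide apart. Abcc9, a sulfonylurea receptor that can join Kcnj8, was at 12.21 to 12.25 in wild-type muscle and 7.56 to 8.03 in wild-type brain. Whole-tissue values do not show which pore or which cells that level goes with. Vascular cells are a known source of Kcnj8, and 4 of 5 smooth muscle and pericyte markers were called higher in muscle, while Cspg4 was at -0.06 with overlap. The 5 averaged 9.71 to 9.89 in wild-type muscle and 8.50 to 8.83 in wild-type brain. Their part in the Kcnj8 difference was not tested.

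A further member was called in each genotype alone. Kcng4, a modulatory subunit that is silent without a partner pore, was at -1.46 (SE 0.38, adjusted p = 0.0027) in wild type and -0.90 in mutants. Without wild-type brain arrays 1 and 2 the wild-type difference was -1.03 and was no longer called. Kcnk15, a leak channel subunit of the TASK group, was at -0.85 in wild type and -1.18 (SE 0.13) in mutants. The change of these differences with genotype did not pass the interaction test given below. Both genes were called higher in muscle in both genotypes under either scaling.

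Among the calcium channel pores, 7 of 9 genes were higher in brain. Cacna1e, the R-type pore, was at 11.00, 10.63, 10.26 and 10.60 in wild-type brain and 5.57, 5.73, 5.85 and 5.31 in wild-type muscle, a difference of 5.0 (SE 0.22). The low-voltage-activated pores Cacna1g and Cacna1h were at 3.67 and 2.65, the presynaptic pores Cacna1a (P/Q-type) and Cacna1b (N-type) at 3.45 and 3.20, and the L-type pores Cacna1c and Cacna1d at 3.21 and 3.07. By the probe sets that stand for them, these 7 pores were thus higher in brain by 2.65 to 5.0. Another probe set of Cacna1e was at 6.94 to 7.23 in wild-type brain and 6.92 to 7.24 in wild-type muscle. A dim probe set of Cacna1a was at 5.59 to 5.90 and 5.65 to 5.91. All other probe sets of the 7 pores were higher on every wild-type brain array than on any wild-type muscle array. The only pore without a call was Cacna1f, the L-type pore of the retina, at -0.17.

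The auxiliary calcium channel genes separated by tissue in a like way. Cacnb4, a beta subunit of neuronal channels, was at 12.29, 12.17, 11.90 and 11.90 in wild-type brain and 5.34, 6.94, 5.56 and 6.40 in wild-type muscle, a difference of 6.0 (SE 0.26). Its highest muscle values were on arrays 2 and 4, the arrays with neuron transcripts. Cacnb2 was at 4.26, and Cacna2d3 at 5.07 (SE 0.19). Of the other alpha-2-delta genes, Cacna2d2 rests on the probe set used. Its 3 probe sets gave 0.18 for the one that stands for the gene, 0.32 and 4.07, and the last, at 9.30, 9.02, 9.02 and 9.18 in wild-type brain and 4.86, 5.22, 5.08 and 5.06 in wild-type muscle, was called higher in brain. Cacna2d4, at 0.27, was not called and turned to -0.56 with quantile normalization and -0.41 with median centring. Of the 8 Cacng genes, the 6 that encode TARPs (Cacng2, Cacng3, Cacng4, Cacng5, Cacng7 and Cacng8) were higher in brain and the muscle gamma genes Cacng1 and Cacng6 were higher in muscle. Among them Cacng3 was at 10.43, 10.81, 10.05 and 10.49 in wild-type brain and 4.91, 5.08, 4.76 and 4.40 in wild-type muscle, 5.66 apart (SE 0.20).

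Of the 15 voltage-gated potassium pores and silent subunits outside the Shaker, EAG and KCNQ groups, 9 were higher in brain and 1, Kcng4, was higher in muscle in wild type. Kcnd2, the A-type pore of dendrites, was at 11.94, 11.78, 11.71 and 11.68 in wild-type brain and 4.23, 6.39, 4.66 and 5.48 in wild-type muscle, 6.59 apart (SE 0.34, adjusted p = 1.6e-10). On the muscle arrays it ran highest on arrays 2 and 4, where the synaptic gene Snap25 was at 9.23 and 7.79, against 4.00 and 5.18 on arrays 1 and 3. The part of the neuron transcripts in these muscle values was not tested. Kcnc2, a pore of fast-spiking interneurons, was at 11.23, 11.44, 11.79 and 11.65 in brain and 4.62, 5.76, 4.79 and 5.34 in muscle, 6.40 apart. Kcnv1 and Kcnf1, both silent subunits, were at 4.81 and 4.69, and Kcnd3, a further A-type pore, at 4.61.

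Kcnc1, which encodes a fast delayed rectifier, was an exception whose direction rests on the probe set. The brightest of its 4 probe sets was higher on every muscle array, at 10.71, 10.62, 10.75 and 10.64 in wild type against 9.90, 10.07, 9.50 and 9.91 in brain, a difference of -0.84, under the minimum of 1. Its other probe sets gave 1.52, 2.58 and 0.54, of which the first and second were called higher in brain. With quantile normalization and median centring the brightest probe set was at -1.51 under both and was called higher in muscle. Of the 56 members with several probe sets, 25 had all of them called in the same direction in wild type, 19 had some called, 11 had none called and 1, Cacnb1, had calls both ways.

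In the EAG, ERG and ELK group, 5 of 6 members were higher in brain. Kcnh1 was at 10.84, 10.89, 9.50 and 10.09 in wild-type brain against 5.59, 5.90, 5.62 and 5.60 in muscle (4.66, SE 0.27). Kcnh5 differed by 3.5 and Kcnh2, the ERG channel of cardiac repolarisation, by 2.79. The 3 KCNQ genes went 3 ways. Kcnq3, a pore of the neuronal M-current, was at 11.24, 11.13, 10.54 and 10.96 in wild-type brain and 4.34, 5.08, 4.39 and 5.13 in wild-type muscle (6.24, SE 0.21), Kcnq1 was higher in muscle, and Kcnq5 was at 0.90 without a call. The other probe sets of Kcnq5 gave 1.66, called higher in brain, and -0.19, so its tissue difference rests on the probe set used. Among the 9 partners of voltage-gated potassium pores, the 4 KChIP genes were higher in brain, with Kcnip2 at 5.51, Kcnip3 at 3.47, Kcnip4 at 2.73 and Kcnip1 at 1.62. For Kcnip1 the size rests on the probe set used. A dimmer probe set was at 5.65 to 7.74 in wild-type brain and 5.46 to 5.74 in wild-type muscle. A further one was at 6.75 to 7.37 and 6.35 to 6.78, so both overlapped. KChIP proteins join the Kcnd pores, and Kcnd1 (at 1.16), Kcnd2 and Kcnd3 were higher in brain too. For Kcnd1 this rests on the probe set used. Another of its probe sets ran the other way, at 6.15 to 6.54 in wild-type brain and 6.91 to 7.31 in wild-type muscle. The remaining one was at 7.20 to 7.45 and 6.23 to 6.54. Dpp6 and Dpp10, transmembrane partners of the same pores, were at 10.42 to 11.27 and 11.52 to 11.72 in wild-type brain and at 5.43 to 6.23 and 5.53 to 5.96 in wild-type muscle. They belong to a list of 10 measured channel partners, of which 4 were higher in brain and 2 in muscle in wild type. The shares of all genes were 29.7% and 8.38%. The KCNE partner genes Kcne1, Kcne3 and Kcne4 were at -0.34, 0.01 and -0.49 and were not called, nor was Kcne2 in wild type, described below. Kcne1l, listed beside them, was at 6.40, 6.68, 7.38 and 7.47 in wild-type brain and 4.68, 5.47, 5.12 and 4.84 in wild-type muscle, a difference of 1.95 (SE 0.30, adjusted p = 3.0e-05), and was called in mutants too.

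Of the 15 inward rectifiers, 6 were higher in brain and 1, Kcnj8, in muscle, beside 29.7% and 8.38% of all genes. Kcnj10, which clears potassium in astrocytes, was at 11.57, 11.56, 11.97 and 11.89 in wild-type brain and 6.31, 6.91, 6.14 and 6.65 in wild-type muscle, 5.25 apart (SE 0.18). Subunits of the G-protein-gated channel differed in size: Kcnj9 was at 3.35 and Kcnj3 at 2.67, whereas Kcnj6 was at 0.37 and Kcnj5 at 0.48, without a call. Of the other 4 probe sets of Kcnj6, 2 were called higher in brain, at 1.05 and 1.24. Kcnj11 and Kcnj12, inward rectifiers known from muscle, were at -0.20 and -0.88, and Kcnj2 at 0.43. Kcnj12 was at -1.63 with quantile normalization and -1.56 with median centring, called higher in muscle under both.

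Of the 12 leak channels, 7 were higher in brain. Kcnk1 was at 11.65, 11.93, 11.66 and 11.82 in wild-type brain and 6.35, 7.0, 6.40 and 6.81 in wild-type muscle, 5.12 apart (SE 0.15). Kcnk2, the stretch-sensitive TREK channel, was at 3.30. Of the 11 channels gated by calcium or sodium, 7 were higher in brain. Kcnmb4, the neuronal BK beta subunit, was at 4.11 and the sodium-activated Kcnt2 at 3.58. The SK channel Kcnn2 was at 3.04 and the BK pore Kcnma1 at 3.13. Another probe set of Kcnma1 was at 7.96 to 8.97 in wild-type brain and 8.70 to 9.20 in wild-type muscle. A further one was at 5.69 to 8.05 and 5.64 to 5.99. The remaining ones of Kcnma1 were higher on every wild-type brain array, so its size rests on the probe set used. Kcnn3, an SK channel that appears in immature or denervated muscle, was at 5.43, 5.87, 5.66 and 6.02 in wild-type muscle and 5.35, 5.71, 5.53 and 5.60 in wild-type brain. These overlapped, with a difference of -0.20 (adjusted p = 0.17) that became 0.0047 without wild-type muscle arrays 2 and 4. Of the antisense transcripts, Kcnmb4os2 was at 1.39 and called higher in brain, and Kcnmb4os1 was at 0.09.

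The tissue differences were much alike in the genotypes. Across the 97 genes, wild-type and mutant differences, which come from separate arrays, correlated at 0.991, a description over genes that share their arrays. They had the same sign for 95 genes, and the median absolute change was 0.21. The largest change was 1.11, for Kcnf1. In wild type 33 members had no tissue call, with differences from -0.88 (Kcnj12) to 1.07 (Kcne2). Of other channel families, 8 of 10 Shaker genes (Kcna symbols) were higher in brain and 1 in muscle in wild type, with a median of 2.82. By the same measure 6 of 11 voltage-gated sodium channel genes were higher in brain, with a median of 1.77. Of all genes, 29.7% were higher in brain and 8.38% in muscle.

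Some members varied widely among the brain arrays, and markers of cell types or regions are given beside them. Kcnj13, an inward rectifier of the choroid plexus epithelium, was at 6.77, 7.98, 9.53 and 10.14 on the wild-type brain arrays and 8.13, 9.06 and 10.32 on the mutant ones. Kcne2, a partner subunit in the same epithelium, was at 5.39, 4.81, 7.32 and 8.34 and at 5.91, 7.0 and 8.59. For both, wild-type arrays 1 and 2 were the lowest of the 7 brain arrays, and the genotypes overlapped. Ttr, the transthyretin gene that defines this epithelium, was at 11.84, 11.91, 13.70 and 13.74 and at 13.00, 13.43 and 13.68, and Kl at 6.59, 6.85, 9.15 and 9.89 and at 7.89, 8.31 and 9.69. All 5 choroid plexus markers were measured, and their mean spanned 7.56 to 10.21 on the wild-type arrays and 8.80 to 9.97 on the mutant ones. The Kcne2 tissue difference was 1.07 (SE 0.66, adjusted p = 0.15) in wild type. It was 1.63 and called without wild-type brain array 2, and 2.44 and called without arrays 1 and 2.

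The silent subunit gene Kcng4 was at 7.0, 7.26, 8.23 and 7.74 in wild-type brain and at 7.92, 9.40 and 7.22 in mutant brain. The highest value was on mutant array 2, where the Purkinje cell gene Pcp2 was at 16.76. The next was on wild-type array 3, where Pcp2 was at 13.03, against 8.20 to 8.79 on the other brain arrays. On the muscle arrays Pcp2 was at 8.41 to 8.72. The mean of 4 Purkinje cell markers was 13.19 on that mutant array, 10.60 on that wild-type array and 8.61 to 9.11 on the rest. Cacna1g, a T-type pore that is strong in Purkinje cells and thalamus, varied less, from 9.46 to 9.61 in wild type and at 9.10, 9.73 and 9.08 in mutants, with its highest value on the same mutant array. The part of sample makeup in these values was not tested.

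**Figure D3:**
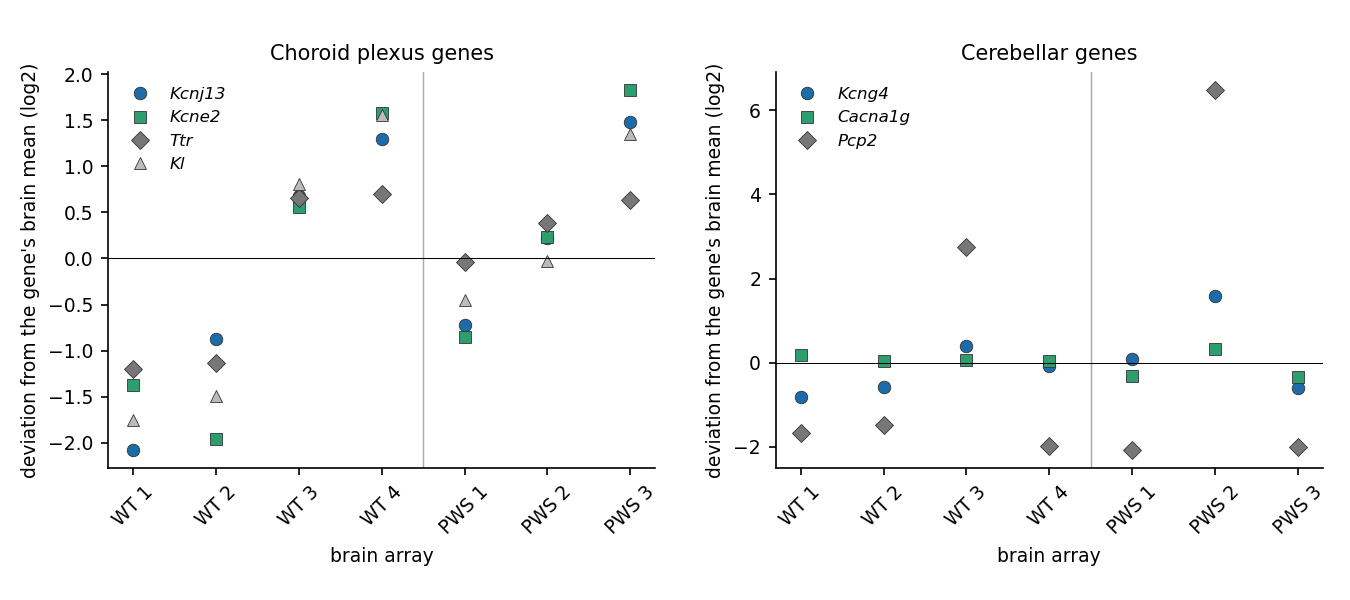
Deviation of each brain array from the gene's mean over the 7 brain arrays (log2), for Kcnj13 and Kcne2 with the choroid plexus genes Ttr and Kl (left) and for Kcng4 and Cacna1g with the Purkinje cell gene Pcp2 (right). Wild-type arrays 1 and 2 lie below 0 for all 4 genes on the left, and mutant array 2 is highest for all 3 genes on the right.

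The comparison of mutant with wild-type brain asked whether the deletion went with a change in channel transcripts. Of the 97 members, 80 passed the filter on low values (6.64 in brain) and were tested, and 17 were not. In limma 0 of the 80 passed an adjusted p of 0.05, beside 0.066% of all genes tested. An unadjusted p under 0.05 was reached by 5 members (6.25%, beside 8.2% of all genes), and the smallest adjusted p was 0.556. Of the 5, 2 were higher in mutants (2.5%, beside 5.29% of all genes) and 3 lower (3.75%, beside 2.91%). Of the differences, 42 were above and 38 below 0, with a median of 0.00 beside 0.06 over all genes tested. The 95% interval of the difference lay within 0.5 of 0 for 29 members and within 1 of 0 for 70.

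The member with the smallest p in brain was Kcnn2, an SK channel of the afterhyperpolarisation. It was at 9.54, 9.60, 10.01 and 9.96 in wild type and 10.22, 10.50 and 10.04 in mutants, with every mutant array above every wild-type one. Its difference was 0.48 (SE 0.16, 95% interval 0.12 to 0.84, adjusted p = 0.556), and 0.27 without wild-type arrays 1 and 2. Kcnn2 was the single member whose mutant arrays all lay above the wild-type ones, 1.25% of those tested beside 5.78% of all genes. Cacna1b, the N-type pore, was at 9.97, 9.72, 9.16 and 9.20 in wild type and 9.11, 8.66 and 9.02 in mutants by the probe set that stands for it, without overlap but with wild-type arrays 1 and 2 well above 3 and 4. The difference of that probe set was -0.58 (SE 0.22), and -0.25 without wild-type arrays 1 and 2. The gene has 4 probe sets, and 2 others of like brightness in brain differed by -0.02 each, with overlap, so the size rests on the probe set used. The remaining one was at -0.29. Kcnj6, a subunit of the G-protein-gated channel, was at 7.72, 7.68, 7.76 and 7.53 in wild type and 7.26, 7.5 and 7.49 in mutants, also without overlap, a difference of -0.25 (SE 0.11), while its other 4 probe sets ran from -0.42 to 0.06. These 2 lower members were 2.5% of those tested, beside 2.87% of all genes.

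The largest brain difference among the 8 members with the smallest p was that of Cacng5, a TARP-related gene. It was at 9.93, 9.40, 8.84 and 9.27 in wild type and 8.86, 8.84 and 7.55 in mutants. The groups overlapped, mutant array 3 was far below the others, and the difference was -0.94 (SE 0.35, 95% interval -1.73 to -0.15). Leaving out single arrays moved it between -1.16 and -0.51. Kcnj3, the partner of Kcnj6 in the G-protein-gated channel, was at 0.32 (SE 0.13), and its other 3 probe sets were at 0.22, 0.08 and 0.08. Kcns3 at 0.30, Cacng4 at -0.40 and Kcnk15 at -0.25 completed the 8.

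All 8 tested calcium channel pores had a difference below 0 in brain, with a median of -0.26, while 38.1% of all genes tested were below 0. They ran from Cacna1b at -0.58, Cacna1c at -0.38, Cacna1d and Cacna1h at -0.32 each, Cacna1g at -0.20, Cacna1a at -0.18 and Cacna1e at -0.16 to Cacna1f at -0.05. None passed the adjusted test. Without wild-type brain arrays 1 and 2, 3 of the 8 were below 0 and the median was 0.05, so the shared sign was not seen without those arrays. On the same arrays the striatal neuron markers were at 11.51 and 10.93, against 9.26 to 10.60 on the other brain arrays (a mean of 8 genes), and choroid plexus markers were low. The part of sample makeup was not tested. Without wild-type arrays 1 and 3, all 8 were below 0 with a median of -0.17.

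**Figure D4:**
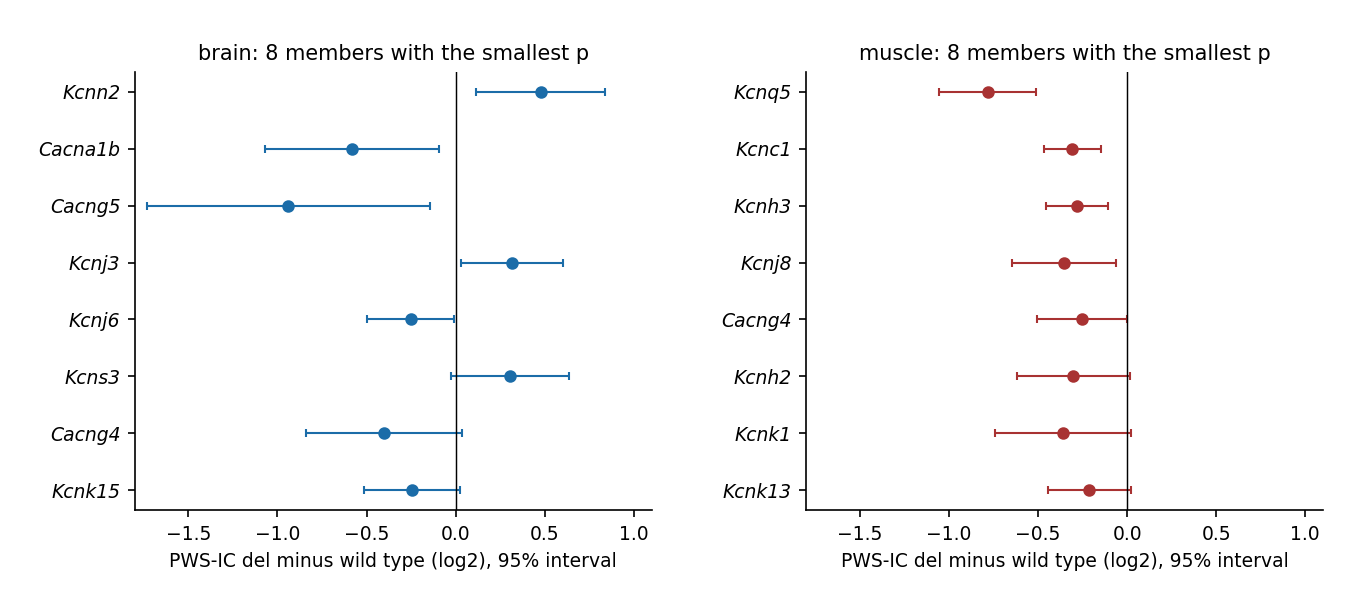
Mutant minus wild-type difference (log2) with its 95% interval from limma for the 8 members with the smallest p in brain (left) and in muscle (right). None passed an adjusted p of 0.05, and in muscle all 8 lie below 0, Kcnq5 farthest at -0.78.

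In muscle 54 members passed the filter on low values (6.08) and were tested, and 43 were not. Again 0 passed an adjusted p of 0.05 in limma, beside 0.117% of all genes tested. With array quality weights, which gave mutant array 2 a weight of 5.88 and the other muscle arrays 0.337 to 1.47, 7 members were called (Kcnq5, Kcnc1, Kcnh3, Cacng4, Kcnq1 and Kcnip3 lower and Cacna2d2 higher in mutants), beside 13.6% of all genes. Kcnq5 alone was called under 4 other settings. An unadjusted p under 0.05 was reached by 5 members (9.26%, beside 11.9% of all genes). All 5 were lower in mutants, beside 6.03% of all genes, and 0 were higher, beside 5.89%. Of the differences, 18 were above and 36 below 0, with a median of -0.08 beside 0.02 over all genes tested. Without wild-type arrays 2 and 4, which carried neuron transcripts, 31 of the 54 were below 0 and the median was -0.04. The neuron markers themselves were lower in mutant muscle in 5 of 5 genes, at a median of -0.42, and 0 were called. The 95% interval lay within 0.5 of 0 for 38 members and within 1 of 0 for 53. Between genotypes, 49 members were tested in both tissues, 31 in brain alone, 5 in muscle alone and 12 (Cacng8, Kcne1, Kcne3, Kcnh7, Kcnj1, Kcnj14, Kcnj2, Kcnj5, Kcnk7, Kcnmb4os1, Kcnn3 and Kcnv2) in neither.

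Kcnq5, an M-current pore also found in skeletal and smooth muscle, came closest to a call. It was at 9.24, 9.14, 9.21 and 8.83 on the wild-type muscle arrays and 8.17, 8.46 and 8.33 on the mutant ones, with every mutant array below every wild-type one. The difference was -0.78 (SE 0.12, 95% interval -1.06 to -0.51, adjusted p = 0.0597). The adjusted p ranged from 0.0119 to 0.286 over 19 alternatives, 5 of which called it, and from 0.0772 to 0.203 when single arrays were left out. Without wild-type arrays 2 and 4 the difference was -0.90, and without the 3 arrays with the most fat cell transcripts, which leaves 1 mutant array that is assumed to vary like the others, it was -0.76. All 3 probe sets of the gene gave nearly the same difference, -0.78, -0.79 and -0.84, and none of them overlapped between genotypes. Over all probe sets their adjusted p was 0.103, 0.0985 and 0.103. In brain the same gene was at 0.27 (SE 0.28).

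**Figure D5:**
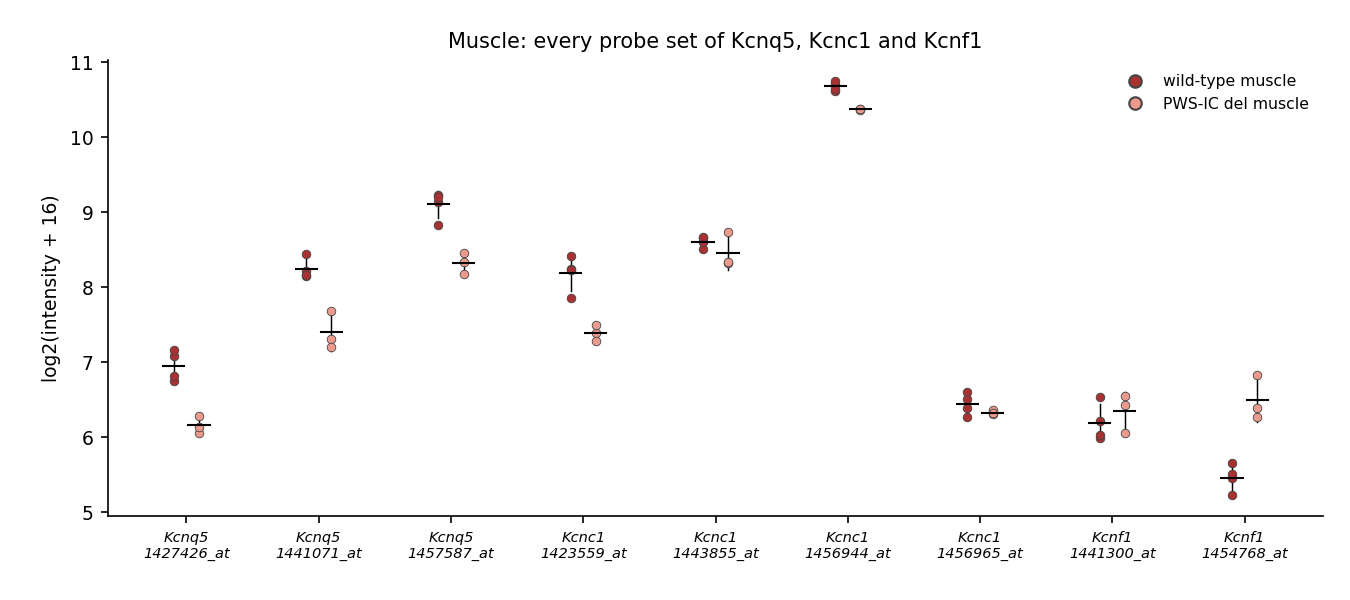
Value of each muscle array (log2 of intensity + 16) for every probe set of Kcnq5, Kcnc1 and Kcnf1, wild type and mutant, with the mean as a bar and the SD as a line. The mutant arrays lie below the wild-type ones in all 3 probe sets of Kcnq5 and in 2 of 4 of Kcnc1, and above them in 1 of 2 of Kcnf1.

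Kcnc1 was at 10.71, 10.62, 10.75 and 10.64 in wild-type muscle and 10.38, 10.36 and 10.38 in mutant muscle, without overlap, a small difference of -0.31 (SE 0.07, adjusted p = 0.172). Its probe sets disagreed in size. A second one was at 8.42, 7.86, 8.24 and 8.23 against 7.39, 7.29 and 7.5, a difference of -0.79 (SE 0.14, adjusted p = 0.132 over all probe sets), and the remaining ones were at -0.15 and -0.12 with overlap. Kcnh3, an ELK channel, was at 8.35, 8.42, 8.55 and 8.43 against 8.17, 8.19 and 8.12, also without overlap, a difference of -0.28 (SE 0.08). Its other 3 probe sets were at -0.24, -0.04 and 0.13, so here too the size rests on the probe set used. In all, 5 members (Kcnc1, Kcnh3, Kcnj8, Kcnj9 and Kcnq5) had every mutant array below every wild-type one, 9.26% of those tested beside 5.86% of all genes. Cacna2d1 was the single tested member with every mutant array above, 1.85% beside 6.31%.

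Kcnj8 was at 9.34, 9.23, 8.91 and 8.91 in wild-type muscle and 8.85, 8.75 and 8.62 in mutant muscle, just without overlap, a difference of -0.36 (SE 0.13, adjusted p = 0.337). All 5 smooth muscle and pericyte markers were also lower in mutant muscle, at a median of -0.56 with 0 called, and their mean lay at 9.71 to 9.89 on the wild-type arrays and 9.15 to 9.36 on the mutant ones. The pericyte gene Rgs5 was at 12.87, 12.87, 12.58 and 12.58 against 12.26, 12.27 and 12.12. Like Kcnj8, it was highest on wild-type arrays 1 and 2. The part of these cells in the Kcnj8 values was not tested. Abcc9, a partner of Kcnj8, was at 12.21 to 12.25 on the wild-type and 12.25 to 12.27 on the mutant arrays. Whether its level bears on Kcnj8 was not tested. The remaining members named by their p were Kcnk1 at -0.36, Kcnh2 at -0.30, Cacng4 at -0.25 and Kcnk13 at -0.21. Kcnk1 was at -0.09 without wild-type arrays 2 and 4.

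Of the 10 tested inward rectifiers, 9 were below 0 in mutant muscle, with a median of -0.13, while 45.9% of all genes tested were below 0. Without wild-type arrays 2 and 4, 7 of the 10 were below 0 and the median was -0.06. Among the genes of the voltage sensor, the mutant minus wild-type difference was 0.04 (95% interval -0.14 to 0.21) for Cacna1s, -0.05 (95% interval -0.25 to 0.15) for Cacng1 and 0.02 (95% interval -0.16 to 0.19) for the brightest probe set of Cacnb1. Cacna2d1 was at 12.19, 12.17, 12.09 and 12.20 in wild type and 12.22, 12.30 and 12.30 in mutants, and its other 4 probe sets differed by 0.57, -0.05, -0.48 and -0.21 between genotypes.

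Kcnf1, a silent potassium channel subunit, lay below the filter in muscle and was not among the tested genes. It was at 5.23, 5.66, 5.46 and 5.52 in wild-type and 6.83, 6.28 and 6.39 in mutant muscle, with every mutant array above every wild-type one. Without the filter the difference was 1.03 (SE 0.15, 95% interval 0.68 to 1.38, adjusted p = 0.0882). Its second probe set differed by 0.15 and overlapped. In brain Kcnf1 was at 10.45, 10.36, 9.62 and 10.20 in wild type and 10.36, 9.67 and 10.21 in mutants, a difference of -0.08.

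Whether the genotype difference itself differed between brain and muscle was tested with an interaction term over all 97 members, with no filter. In limma 0 passed an adjusted p of 0.05, beside 0.077% of all genes, and 8 had an unadjusted p under 0.05 (8.25%, beside 6.5% of all genes). The smallest p belonged to Kcnf1, whose brain difference minus muscle difference was -1.11 (SE 0.30, adjusted p = 0.427, and 0.188 to 0.807 over its alternatives). Kcnq5 followed at 1.06 (SE 0.33, adjusted p = 0.590), and at 1.49 with an adjusted p of 0.0799 without wild-type brain arrays 1 and 2. The other 6 were Kcnk1 at 0.62, Kcnn2 at 0.58, Kcnn3 at 0.49, Kcnj3 at 0.44, Kcnmb4os1 at 0.48 and Kcns1, a silent subunit, at 0.62. Over the 194 member probe sets taken singly, 0 were called in brain, in muscle or in the interaction, and 11, 20 and 10 had an unadjusted p under 0.05. The shares over all probe sets are not given here, so these counts are not read as a result about the members.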

How the data were processed

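RNA of 14 samples was measured on 1-colour Affymetrix Mouse Genome 430 2.0 arrays. Each deposited value is an intensity on a linear scale, made with PLIER and Affymetrix Expression Console per the submitters' processing notes. The summary settings, the background correction and any scaling were not given in the sources used here, and a different scaling of brain and muscle arrays would shift every tissue difference. The table held 0 missing values, 0 values at or below 0 and 0 identical array pairs. No detection calls were used, so a low value is not read as absence. The 64 control probe sets were left out. Gene symbols came from the platform annotation, and all 97 members matched RefSeq (GRCm38.p6) by Entrez number.

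Values were taken as log2(intensity + 16), with 1 probe set per gene (the brightest by mean over the arrays). Genotypes were compared within each tissue with limma 3.58.1 (lmFit, eBayes; R 4.3.3), after leaving out genes below the 0.25 quantile of mean values, which left 13645 genes. Tissue differences and the interaction were contrasts of 1 fit over the 14 arrays and 18193 genes with no filter. Tests were 2-sided with Benjamini-Hochberg adjustment over all genes of a comparison and a threshold of 0.05, and tissue calls also needed a log2 difference of at least 1. The number of arrays limits the precision. The fits were tested on simulated data with genes changed by known amounts. Noise there was drawn independently for each gene, so shifts shared by many genes of an array were not covered.

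Genes named in the text were the members with the largest tissue differences, the voltage-sensor complex, the 8 with the smallest p in each genotype comparison and the interaction, up to 3 per family with the smallest tissue p, cell type marks, and genes with probe sets called both ways. Kcnc1's second probe set and other family members were added after their values were seen. The members and gene lists were chosen with earlier results of these data known. Alternatives covered the pseudocount, scaling, filters, probe set choice, an intensity trend, array weights, the replicate block, thresholds, single-tissue or single-genotype fits and leaving out arrays. Fits without the array combinations that stood apart were added after seeing the data.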

Additional observations from a re-analysis of the deposited data

Results flagged for a closer look

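Among 102 groups of 4 arrays of the named genes, 4 had an array set apart from the other 3 by more than Dixon's critical value at the 95% level. Chance alone gives such a mark in about 1 group in 20. Of these, 3 were on wild-type muscle array 2. There Cacna2d3 was at 6.43, against 5.72 to 5.82 on the other wild-type muscle arrays. Kcnh1 was at 5.90 on that array, against 5.59 to 5.62, and Kcns3 at 6.43, against 5.93 to 5.98. The neuron markers had a mean of 7.95 on the same array, against 5.65 to 7.18 on the other wild-type muscle arrays, and their part in the 3 values was not tested. In brain, Kcnj9 was at 10.05 on wild-type array 2, against 9.70 to 9.73 on the other wild-type arrays, and the mutant arrays were at 9.76, 10.02 and 10.18.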

How the results depend on the processing

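Of 1703 single-gene results under an alternative, 1676 kept their direction and side of the threshold, 16 gained and 8 lost a call, and 3 turned sign. Cacna2d4 (0.27, brain minus muscle in wild type) turned to -0.56 with quantile normalization and -0.41 with median centring, whose construction moves the tissues against each other, and Kcnn3 (-0.20) to 0.0047 without wild-type muscle arrays 2 and 4. Muscle-higher members went from 7 to 14 in wild type and 16 in mutants with quantile normalization. They went to 16 and 14 with median centring, and to 15 and 13 with no minimum difference. Shares of all genes are not given beside these counts. Members called between genotypes in muscle went from 0 to 1 with a pseudocount of 64, quantile normalization, the mean of probe sets or an intensity trend (Kcnq5 each time), and to 7 with array weights. The cause was not tested. Leaving out single arrays gave 56 to 58 brain-higher and 7 to 7 muscle-higher members in wild type, 57 to 61 and 7 to 8 in mutants, and 0 to 0 in both genotype comparisons and the interaction. With the replicate block, 0 members were called between genotypes in brain, 0 in muscle and 0 in the interaction, with 57 and 7 tissue calls in wild type and 61 and 7 in mutants. The deviations of same-numbered arrays from their group means were correlated over genes. Between genotypes they correlated at -0.051, -0.257 and -0.438 in brain and at 0.052, 0.382 and -0.028 in muscle. Between tissues they correlated at 0.008, 0.013, 0.0 and -0.032 in wild type and 0.054, 0.066 and 0.148 in mutants. These values cannot show whether same-numbered samples came from the same mouse, since tissues of a mouse need not share such deviations. The number of arrays limits what could be seen: intervals in brain often spanned a log2 difference of 0.5, and dim members were not tested between genotypes.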
